A study of Mus musculus with 2 samples.

Results

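Fatty acid oxidation in the liver was described through 40 genes: the enzymes and carriers that break down fatty acids in mitochondria and peroxisomes, the acyl-CoA thioesterases, and the nuclear receptor PPAR alpha with several of its target genes. They were taken by name, and each was represented by the probe set, a set of short oligonucleotides reading 1 transcript, with the highest mean signal among those that name that gene alone. All 40 were named on the array, out of 12393 genes in all, and 39 of them were measured, meaning that the chosen probe set reached a signal of 80.0 on at least 1 array. The exception was Acot2.

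The animals were female mice, 2 months old, with a C57BL/6J background and homozygous for a knockout of apoE, the gene of a lipoprotein ligand that clears remnants from blood. For 4 weeks, 6 of the 12 mice ate a chow supplemented with 10% (w/w) olive oil, and the other 6 ate the same chow with an equal share of maslinic acid-enriched olive oil; maslinic acid is a triterpene of olive fruit. Liver RNA was read on 2 Affymetrix arrays, 1 per diet, and the sources used here do not say whether an array holds RNA of 1 mouse or of pooled mice. With 1 array per diet there is no replicate, diet and array cannot be told apart, and no test or error between diets can be given. Differences are therefore described by size, as a log2 ratio with the olive oil array as denominator. Each array is called by the diet on its label. The knockout is likewise taken from the labels, and the Apoe signals given below differed 18.7-fold between the arrays.

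In mitochondria, fatty acids enter as carnitine esters and are shortened by repeated cycles of dehydrogenation, hydration, a second dehydrogenation and thiolysis, with electrons passed on to the respiratory chain. Peroxisomes run a similar cycle on very long and branched chains, and their enzymes are among the genes most strongly induced in rodent liver when PPAR alpha binds fatty acids or fibrate drugs. PPAR alpha acts as a dimer with a retinoid X receptor and is best known in liver for the response to fasting and to dietary fat.

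The pathway read nearly alike on the 2 arrays. The 39 measured genes had a median log2 ratio of -0.03, against -0.01 over all 5911 measured genes, with 16 above 0 and 23 below. Their median absolute log2 ratio was 0.09, against 0.12 over all measured genes. Past 1.5-fold on the higher side were 2 members, Eci3 and Acaa1a, beside 1.47% of all measured genes. Past it on the lower side was 1 member, Fgf21, beside 1.57% of all measured genes, or 3.05% for both sides. Past 2-fold was Eci3 on the higher side (background 0.305%) and 0 members on the lower side (background 0.305%, or 0.609% for both sides). Counts this small do not set the members apart from the background. Eci3 reached the signal needed to count as measured only on the maslinic acid array, and Fgf21 only on the olive oil array. Each was thus admitted by the array on which it was higher, under the rule that also admitted the background genes. With the minimum set on mean signal, Eci3 was still past 2-fold and Fgf21 was not measured.

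The only repeats in these data are further probe sets naming a gene, which share the hybridisation. Over all measured genes with at least 2 such probe sets, the log2 ratios of probe sets of 1 gene had an SD of 0.23. Of the measured members, 32 (82.1%) lay within that distance of 0, against 76.6% of all measured genes. The 7 outside it were Eci3, Acaa1a and Acot3 on the higher side and Fgf21, Ehhadh, Ppara and Cpt1a on the lower side.

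**Figure D1:**
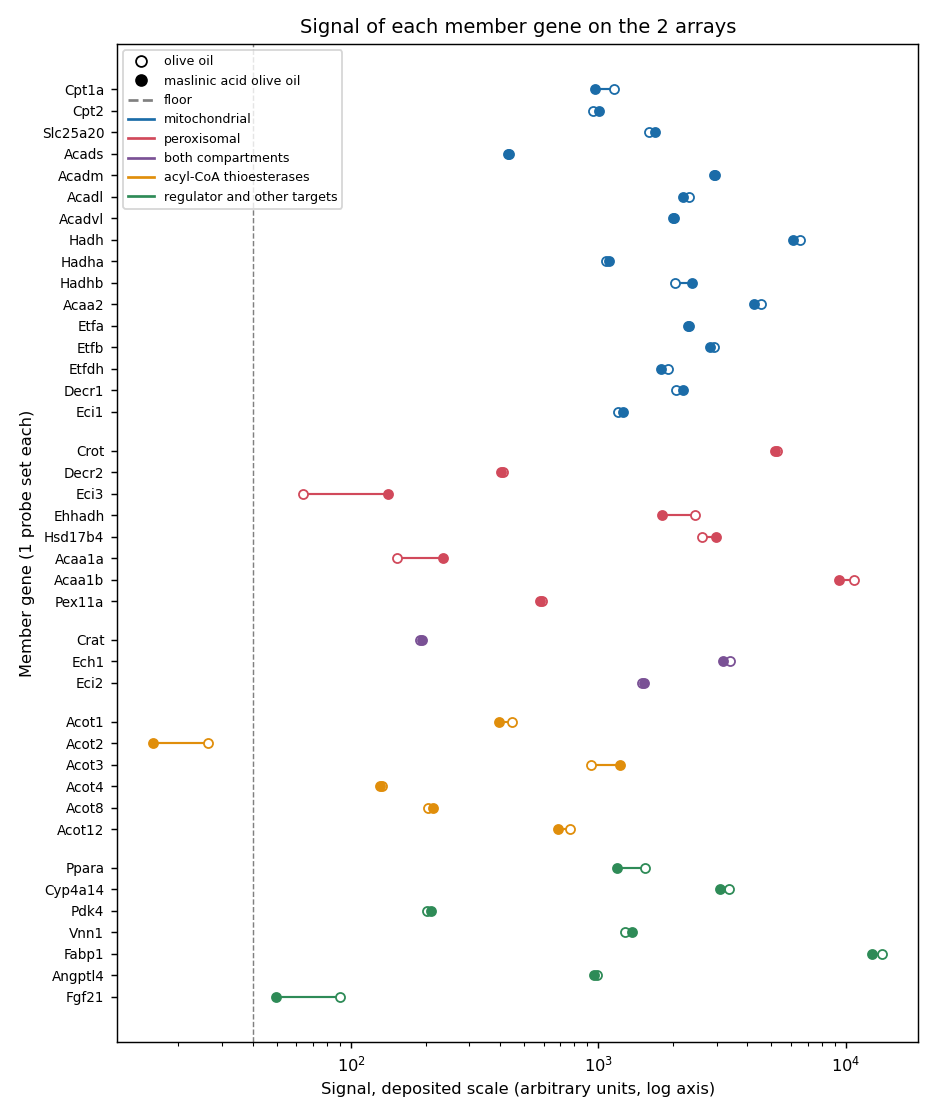
Signal of each of the 40 genes on the deposited scale (x axis, arbitrary units, log scale), with open points for the olive oil array, filled points for the maslinic acid array, and a dashed line at the floor of 40.0. The pairs of points nearly coincide for most genes, Eci3 and Fgf21 are far apart at low signal, and Acot2 lies under the floor on both arrays.

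In the text below, paired signals are on the deposited scale, first on the olive oil array and then on the maslinic acid array. Signals of different genes come from different probes and are not compared with each other.

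The carnitine shuttle carries long-chain acyl groups across the mitochondrial membranes. Cpt1a, the carnitine palmitoyltransferase that controls their entry, read 1154.0 and 971.8, a log2 ratio of -0.25. Its second probe set gave -0.17, but the dimmest one, at 159.5 and 234.4, gave 0.56, so the direction for Cpt1a depends on the probe set. The carrier gene Slc25a20, which exchanges acylcarnitine for carnitine across the inner membrane, read 1595.7 and 1686.2, a log2 ratio of 0.08, and 0.21 on its other probe set. Cpt2, which turns acylcarnitine back into acyl-CoA inside the mitochondrion, read 946.4 and 1006.5, a log2 ratio of 0.09. Crat, the carnitine acetyltransferase found in both mitochondria and peroxisomes, read 190.1 and 193.2, a log2 ratio of 0.02. All of the shuttle lay well inside 1.5-fold on the probe sets used.

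The acyl-CoA dehydrogenases, which start each cycle and differ in the chain length they prefer, were close to level. The medium-chain enzyme gene Acadm read 2928.9 and 2971.0, a log2 ratio of 0.02. Acadvl, for very long chains, read 2023.0 and 2006.3, and Acads, for short chains, read 436.5 and 432.8, with log2 ratios of -0.01 for each. Acadl, for long chains, read 2329.5 and 2197.3, a log2 ratio of -0.08. The 4 genes thus spanned log2 ratios of -0.08 to 0.02.

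The later steps of the mitochondrial cycle were similarly close. Hadha encodes the alpha subunit of the trifunctional protein, which hydrates, dehydrogenates and cleaves long chains, and read 1076.4 and 1098.1, a log2 ratio of 0.03. Hadhb, which encodes the beta subunit and lies next to Hadha on chromosome 5, read 2047.4 and 2385.5, a log2 ratio of 0.22, while its other probe set gave -0.02. The thiolase gene Acaa2 read 4547.0 and 4271.6, a log2 ratio of -0.09, with 0.05 and 0.07 on its other probe sets. Hadh, the hydroxyacyl-CoA dehydrogenase for shorter chains, read 6495.6 and 6141.5, a log2 ratio of -0.08, and its second probe set gave 0.01. A remaining Hadh probe set read 7.4 and 165.0, at least 4.12-fold higher on the maslinic acid array, where the first value lies under the floor and the ratio is a bound. That probe set went against the brighter pair and was not used for the gene.

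Electrons from the dehydrogenases pass through the electron transfer flavoprotein to ubiquinone. Its subunit genes Etfa (2332.8 and 2290.4) and Etfb (2924.1 and 2829.2) had log2 ratios of -0.03 and -0.05. The ubiquinone oxidoreductase gene Etfdh, at 1902.7 and 1784.5, had -0.09. All 3 lay below 0 by less than the probe set SD. Decr1 and Eci1 encode auxiliary enzymes that reduce or move double bonds so that unsaturated chains, such as oleate of olive oil, can enter the cycle. Decr1 read 2051.0 and 2202.2, a log2 ratio of 0.10, and 0.07 on its other probe set, and Eci1 read 1203.3 and 1251.3, a log2 ratio of 0.06. Over the 16 mitochondrial genes the median log2 ratio was -0.01 and the SD across genes 0.11, with 7 above 0 and 9 below, and extremes of -0.25 (Cpt1a) and 0.22 (Hadhb).

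Peroxisomal genes had a similar centre and a wider spread. The 8 genes had a median log2 ratio of -0.03, with 3 above 0 and 5 below, and an SD across genes of 0.50, or 0.33 without Eci3. The peroxisomal median minus the mitochondrial median was -0.01. The genes of the wide end are partly dim or read by discordant probe sets, as follows.

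Eci3 had the largest ratio of all members. It encodes an enoyl-CoA delta isomerase of mouse peroxisomes, which moves double bonds so that unsaturated chains can be shortened, and it is the neighbour of Eci2 on chromosome 13, with 0 protein-coding genes between them. Its only probe set read 63.7 and 141.4, 2.22-fold higher on the maslinic acid array, a log2 ratio of 1.15. Both signals lay above the floor of 40.0, but low, and no further probe set of Eci3 can be set beside it. With a floor of 80.0 in place of 40.0 the olive oil signal lay under the floor, and the log2 ratio was a bound of 0.82. Eci2, the isomerase gene found in both peroxisomes and mitochondria, read 1503.3 and 1523.6, a log2 ratio of 0.02. Eci2 thus read level on its own probe set where Eci3 differed; the gap between them has no replicate check.

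The 250 bases before the transcription start of these neighbours are shown, since one of them had the largest ratio among the members and the other almost none. The sequences are from RefSeq on GRCm38.p6, 5′ to 3′ on the minus strand, at chr13:34963810-34964059 for Eci3 and chr13:34994145-34994394 for Eci2. Letters matching a PPAR response element would be in capitals, and neither has any.
Eci3: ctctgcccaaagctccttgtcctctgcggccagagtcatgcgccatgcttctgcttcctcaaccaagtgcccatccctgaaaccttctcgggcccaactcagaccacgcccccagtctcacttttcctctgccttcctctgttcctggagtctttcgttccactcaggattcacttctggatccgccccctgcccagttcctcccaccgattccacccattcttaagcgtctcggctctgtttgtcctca
Eci2: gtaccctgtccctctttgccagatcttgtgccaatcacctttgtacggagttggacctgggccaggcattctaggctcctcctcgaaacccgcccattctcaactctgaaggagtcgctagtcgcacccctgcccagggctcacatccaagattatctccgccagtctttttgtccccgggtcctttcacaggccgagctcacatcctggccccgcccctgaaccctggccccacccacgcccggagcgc
The G and C content was 57.2% for Eci3 and 61.2% for Eci2, with 9 and 12 CG pairs.

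Ehhadh, the bifunctional enzyme of the inducible peroxisomal cycle and a classical PPAR alpha target, read 2454.7 and 1813.7. This was 1.35-fold lower on the maslinic acid array, a log2 ratio of -0.44, on its only probe set. Among all measured genes, 93.5% had a smaller absolute log2 ratio than Ehhadh. Hsd17b4, the second bifunctional enzyme, which also serves branched chains and bile acid precursors, read 2616.7 and 2994.0, a log2 ratio of 0.19. Its other probe set, at 2374.4 and 2175.7, gave -0.13, so Hsd17b4 has no settled direction.

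The peroxisomal thiolases Acaa1a and Acaa1b end the cycle and are close copies of each other on chromosome 9. Acaa1b read 10761.7 and 9403.1, a log2 ratio of -0.19. Acaa1a alone is named by a dim probe set at 153.4 and 235.0, 1.53-fold higher on the maslinic acid array, and by another at 144.5 and 155.8, with log2 ratios of 0.62 and 0.11. Both carry the suffix _x_at, and Acaa1a was not measured when _x_at and _s_at probe sets were left out. Probe sets that name both genes gave log2 ratios of 0.08 (3469.0 and 3664.9) and -0.07 (5636.6 and 5352.0). The 1.5-fold difference of Acaa1a therefore rested on 1 of the 4 probe sets that name the gene, and the copies could not be separated by the shared ones.

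The remaining peroxisomal genes were level. Crot, the octanoyltransferase that hands shortened chains to carnitine for export, read 5255.8 and 5169.6, a log2 ratio of -0.02. Decr2, the peroxisomal dienoyl-CoA reductase, read 411.5 and 403.4, a log2 ratio of -0.03. Pex11a, a membrane protein gene of peroxisome division, read 593.8 and 577.9, a log2 ratio of -0.04, and 0.24 on its other probe set. Ech1, a dienoyl-CoA isomerase present in both compartments, read 3406.2 and 3182.8, a log2 ratio of -0.10.

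**Figure D2:**
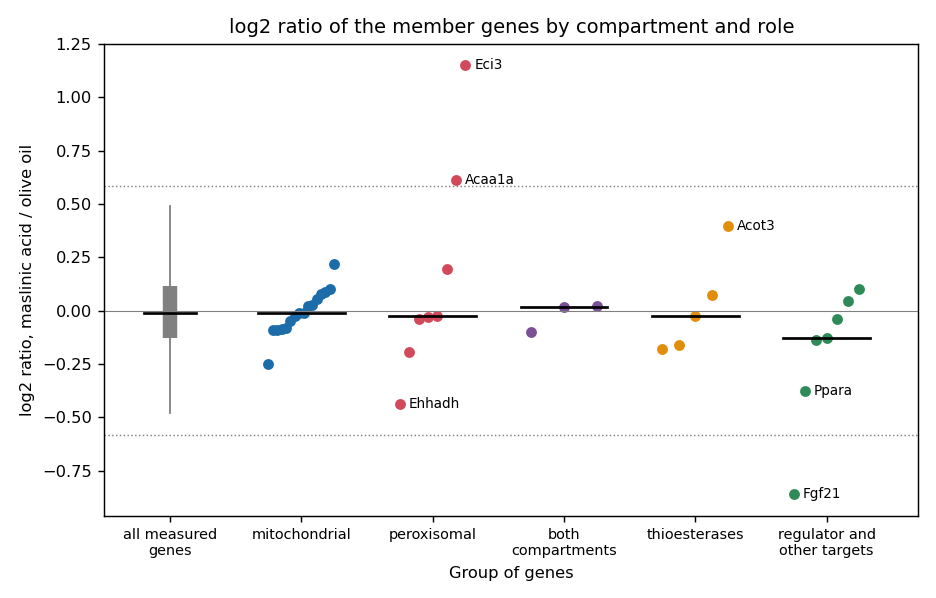
log2 ratio of maslinic acid over olive oil (y axis) for the 39 measured genes by group, with black lines at group medians and dotted lines at 1.5-fold. The grey bar and line mark the middle 50% and 95% of all 5911 measured genes. Mitochondrial genes lie close to 0, while Eci3, Acaa1a and Ehhadh widen the peroxisomal group.

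Acyl-CoA thioesterases release free fatty acids and coenzyme A, and several of them sit side by side in a cluster on chromosome 12. Over the 5 measured genes the median log2 ratio was -0.03 and the SD across genes 0.23, with 2 above 0 and 3 below. Acot3, a peroxisomal enzyme of the cluster, read 931.6 and 1227.1, 1.32-fold higher on the maslinic acid array, a log2 ratio of 0.40. Its only probe set has the suffix _s_at, which marks probes shared by more than 1 transcript. Acot4, its neighbour and also peroxisomal, read 132.9 and 130.5, a log2 ratio of -0.03, and 0.46 on a dimmer probe set at 74.0 and 101.5.

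The cytosolic Acot1, a PPAR alpha target, read 448.1 and 395.1, a log2 ratio of -0.18. A probe set that names both Acot1 and the mitochondrial Acot2 gave -0.25, at 275.9 and 232.8. Acot2 alone read 26.5 and 15.9, both under the floor, so no ratio is given. The acetyl-CoA hydrolase gene Acot12, which acts in the cytosol, read 768.7 and 688.1, a log2 ratio of -0.16, and -0.02 on its other probe set. Acot8, which serves bile acid and fatty acid intermediates in peroxisomes, read 204.6 and 215.0, a log2 ratio of 0.07. The thioesterase median minus the mitochondrial median was -0.01, and members of the same cluster lay on both sides of 0.

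Ppara itself read 1541.4 and 1186.8 on its only probe set. This was 1.30-fold lower on the maslinic acid array, a log2 ratio of -0.38, and 90.9% of measured genes had a smaller absolute ratio. Fgf21, the fasting hormone whose liver expression is driven by PPAR alpha, read 90.4 and 49.8, 1.82-fold lower. Its log2 ratio was -0.86, and a bound of -0.18 with a floor of 80.0, which lies between its signals.

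Other established targets were closer to 0 on the probe sets used. Cyp4a14, an omega hydroxylase and one of the most inducible PPAR alpha targets in mouse liver, read 3380.0 and 3097.5, a log2 ratio of -0.13. Pdk4, the kinase that turns off pyruvate oxidation in fasting, read 203.7 and 210.3, a log2 ratio of 0.05. Vnn1, a pantetheinase that recycles a precursor of coenzyme A, read 1279.5 and 1372.2, a log2 ratio of 0.10. Angptl4, a secreted inhibitor of lipoprotein lipase, read 984.7 and 957.8, a log2 ratio of -0.04. Fabp1, the fatty acid-binding protein of hepatocytes, read 13998.5 and 12727.0 on one probe set and 14375.4 and 10650.9 on the other, with log2 ratios of -0.14 and -0.43. Over the 7 genes from Ppara to Fabp1 the median log2 ratio was -0.13, with 2 above 0 and 5 below. It was -0.05 with quantile normalization, -0.04 with the trend of the ratio on signal removed, and -0.08 under either higher minimum signal, where Fgf21 was not measured.

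The response element through which PPAR alpha acts is a pair of AGGTCA repeats with 1 base between them. The motif AGGTCANAGGTCA was searched on both strands of the 250 bases before each start, allowing up to 2 mismatches at the 12 fixed positions. Among RefSeq promoters it was present in 3.24% of 32851. Promoters were available for 33 members, and 4 of these held a match, in Acot12, Acot4, Etfa and Fabp1. The matches are shown in the direction of the motif, with capitals for letters equal to it and lower case for mismatches and the spacer, because they are the members in which the element was found.
Fabp1: AGGcCAtAGGTCA
Acot12: AGGTgAgAGGTCA
Acot4: cGGcCAaAGGTCA
Etfa: AGGgCAaAGGTaA
They lie on GRCm38.p6 at chr6:71199812-71199824, chr13:91741411-91741423, chr12:84038366-84038378 and chr9:55512308-55512320. Each runs on the strand opposite to its gene, and the Fabp1 match covers bases 67 to 55 before the start. The log2 ratios of these 4 genes were -0.14 for Fabp1, -0.16 for Acot12, -0.03 for Acot4 and -0.03 for Etfa. A match is a description of letters and not of binding.

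The stretch before Fabp1 is given in full, since its element is a textbook one in rodents, with the match in capitals (chr6:71199629-71199878, plus strand).
Fabp1: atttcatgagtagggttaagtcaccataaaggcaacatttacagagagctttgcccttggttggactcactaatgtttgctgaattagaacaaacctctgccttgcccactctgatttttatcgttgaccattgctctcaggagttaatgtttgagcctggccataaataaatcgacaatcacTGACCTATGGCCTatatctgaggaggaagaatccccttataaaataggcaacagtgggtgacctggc

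The members past 1.5-fold were dim, in signal classes set after the values were seen. Of the 25 members with a mean signal of 1000 or more, 0 reached 1.5-fold, where 1.13% of all measured genes in that class did so, and their log2 ratios ran from -0.44 to 0.40. The 7 members between 400 and 1000 also held 0 (1.55% of all measured genes in that class), and ran from -0.18 to 0.09. All 3 members past 1.5-fold were among the 7 members with a mean signal under 400, where 3.96% of all measured genes were past it. The brightest genes of the arrays were also shifted. The 50 brightest had a median log2 ratio of -0.14, with 47 below 0, and the 2 members among them, Fabp1 and Acaa1b, were both below 0. With the trend of the ratio on signal removed, or with quantile normalization, Fabp1 and Acaa1b had log2 ratios between -0.09 and 0.07.

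**Figure D3:**
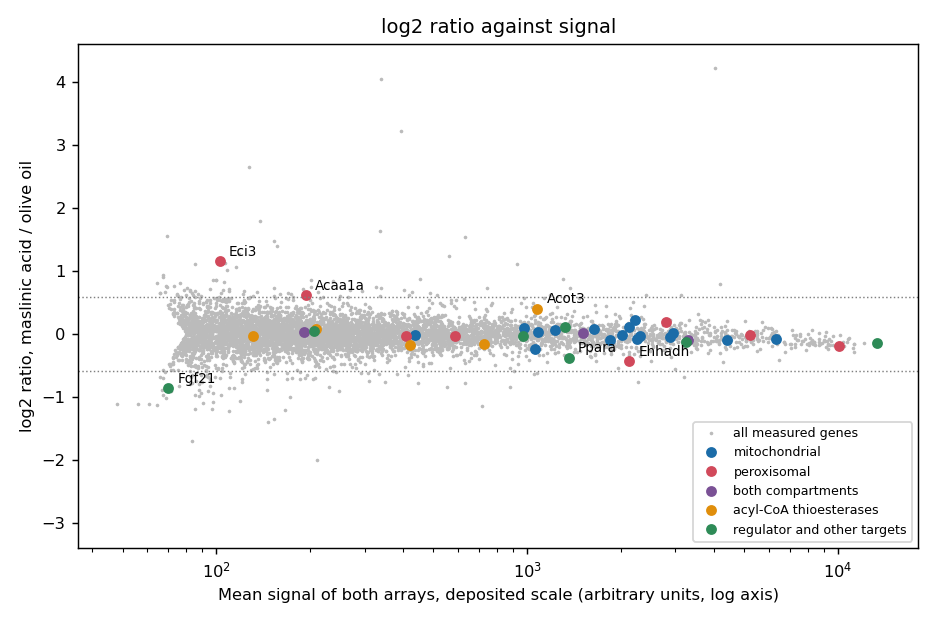
log2 ratio (y axis) against the mean signal of both arrays (x axis, arbitrary units, log scale) for all 5911 measured genes in grey and the 39 measured members in colour, with dotted lines at 1.5-fold. The 3 members beyond 1.5-fold, Eci3, Acaa1a and Fgf21, lie at mean signals under 400, and the 25 members at 1000 or more lie between log2 ratios of -0.44 and 0.40.

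Repeat probe sets gave a further view of the error. A total of 12 members had at least 2 measured probe sets naming them alone. In 7 of them the probe sets lay on both sides of 0, namely Cpt1a, Hadh, Hadhb, Acaa2, Hsd17b4, Pex11a and Acot4. The same count was not taken over all measured genes, so it does not set the members apart. The SD between probe sets of 1 member was 0.50, or 0.24 without the dimmest Hadh probe set. Slc25a20, Decr1 and Acaa1a on the higher side, and Acot12 and Fabp1 on the lower side, kept 1 direction. Of the 7 members furthest from 0, only Cpt1a and Acaa1a had a repeat, and Eci3, Fgf21, Ehhadh, Ppara and Acot3 rest on 1 probe set each.

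**Figure D4:**
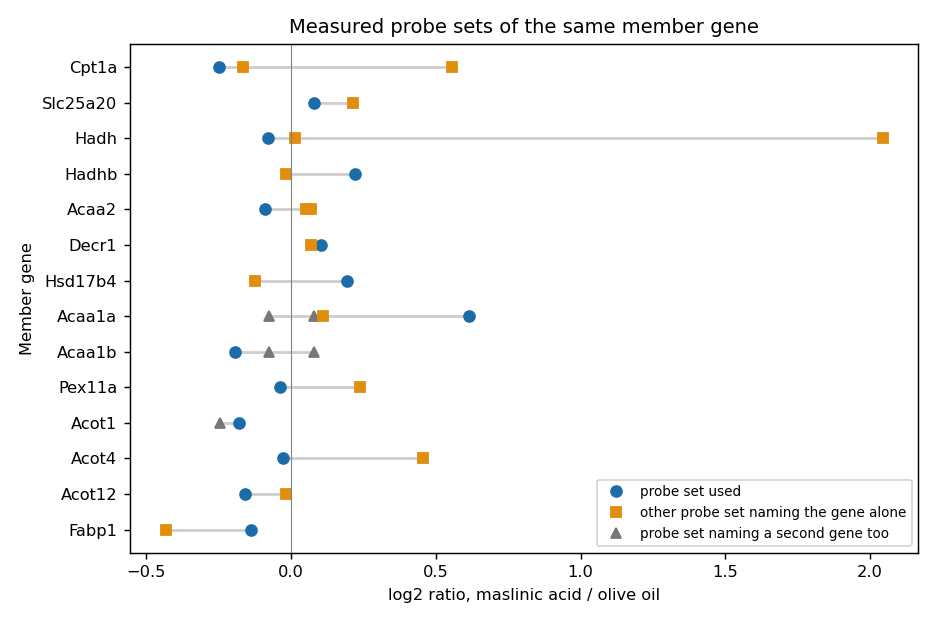
log2 ratios (x axis) of all measured probe sets of the members read by more than 1 (y axis), with circles for the probe set used, squares for others naming the gene alone and triangles for those naming a second gene too. The Hadh square at the right is the bound of at least 4.12-fold, and the points of 7 genes named by several probe sets alone fall on both sides of 0.

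Further genes of the pathway were read from a list of 100, of which 83 were named on the array and 71 measured. Their median log2 ratio was -0.02, with 28 above 0 and 43 below, and 0 reached 1.5-fold in either direction. Of all 5911 measured genes, 2837 lay above 0 and 3074 below, and 3.05% reached 1.5-fold. The counts were not tested against that background. Fatty acid uptake and activation had 8 measured genes between -0.06 and 0.12, among them Slc27a2, an acyl-CoA synthetase of very long chains, at -0.02, and the fatty acid translocase gene Cd36 at -0.04. The 10 measured peroxisome assembly genes had a median of -0.01, and the 13 further mitochondrial acyl-CoA enzymes one of 0.01. Further peroxisomal enzymes and transporters had a median of -0.05, with 8 of 10 below 0, beside 3074 of all 5911 measured genes. Their median signal was 2762.1, and all measured genes with a mean signal of 1000 or more had a median log2 ratio of -0.04.

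Ketone body genes were represented by Bdh1, the hydroxybutyrate dehydrogenase, at -0.32 (-0.10 on its other probe set) and Acat1 at -0.11. The list of partners and regulators of PPAR alpha, which also includes Klb, had the lowest median of the larger sets, -0.17 over 12 genes with 7 below 0. Klb (-0.18) is among the 7, and the median was not taken without it. Of those below 0, Ppargc1a, Ncoa1, Med1 and Hnf4a also had probe sets above 0, up to 0.30, 0.05, 0.10 and 0.64. Of those above 0, Lpin1 had another probe set at -0.12. These 5 genes were named after their values were seen, and the set has no settled direction. The dimerisation partners of PPAR alpha, named after their values were seen, differed. Rxrb read 269.2 and 182.4, a log2 ratio of -0.56, and Rxra read 675.9 and 718.3, a log2 ratio of 0.09, with -0.32 on its other probe set. Among further targets, Plin2, which coats lipid droplets, read 3971.3 and 3629.0, a log2 ratio of -0.13. A probe set that names both Cyp4a10 and Cyp4a31 read 4450.0 and 4559.6, a log2 ratio of 0.04.

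Several facts of the arrays stand beside these values. Apoe, labelled as knocked out in both groups, read 407.7 and 7630.0, 18.7-fold higher on the maslinic acid array. The shared label gives no reason for such a gap between the arrays. The signal of 7630.0 also goes against the label if the probes read the disrupted region. Neither the place of the probes nor a difference in genotype or sample between the arrays was tested. All directions are therefore between arrays as labelled. Hepatocyte markers fixed by name (9 of 10 below 0, median log2 ratio -0.16) summed to 81806 and 73444. Each of the 10 read at least 2061.8 on both arrays. Of all 5911 measured genes 3074 lay below 0, and of the 50 brightest 47 did, with a median of -0.14. Further probe sets of Ttr and Apoa1 also lay below 0, while those of Hnf4a and Tdo2 reached 0.64 and 0.12. Muscle and adipocyte markers, which would mark other tissues rich in fatty acid enzymes or PPAR targets, were at most 17.6 for the 5 muscle genes and at most 41.0 for the 3 adipocyte genes, and 0 of these 8 were measured. The 9 macrophage markers had a median of 0.03, with Marco at -2.00. Of other cell types, 3 of 3 measured endothelial markers lay below 0 (median -0.32) and 2 of 2 stellate markers above 0 (median 0.28). Single markers read 1.54 (Ighm of lymphocytes), -0.14 (Ptprc of leukocytes), 0.68 (Alas2 of erythroid cells) and -0.54 (Cela1 of exocrine pancreas). Other Ighm probe sets gave 0.49 to 1.28. The other named markers of lymphocytes (Cd3e, Cd79a), erythroid cells (Hba-a1) and exocrine pancreas (Prss2, Cpa1) read at most 26.6, under the floor. Ighm, Alas2 and Cela1 alone therefore do not show that those cells were present. In bulk liver, fewer cells of a type, less RNA per cell and, for bright markers, a shift tied to signal cannot be told apart. The part of these marker shifts in the values of Ppara, Ehhadh or Fabp1 was not tested.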

How the data were processed

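Liver RNA was labelled with biotin and read on 1-colour Affymetrix arrays, per the labels' protocols. The deposited values are 1 intensity per probe set on a linear scale, which the authors computed using MAS5 according to the submitters' processing notes; version, settings and detection calls were not used here. Both arrays had a 2% trimmed mean of 200.1. They were rescaled to a trimmed mean of 500, and signals under 100 were set to 100, which is 40.0 on the deposited scale. A gene was measured where its chosen probe set reached 200 (80.0 as deposited) on 1 array or both. Gene names come from the platform annotation, and all 40 members matched a GRCm38.p6 gene by Entrez number. Probe coordinates are not given because the annotation names no build.

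The members and lists were chosen with earlier results of these data known. The named genes are all members, measured further genes of the pathway at 1.5-fold or more (0 were found), a few textbook targets and Apoe; genes named for other reasons are said to be so or serve as group examples chosen after their values were seen. Alternatives covered scaling, centring, floor, minimum, choice of probe set and the compartment of Crat, Ech1 and Eci2. The steps were tested on simulated data. Python 3.11.15, numpy 2.4.6, pandas 2.3.3, scipy 1.17.1 and statsmodels 0.14.6 were used. Precision is limited by having 1 array per diet.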

Additional observations from a re-analysis of the deposited data

Results flagged for a closer look

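A dim probe set of Hadh, which was not used for that gene, had signals of 7.4 (olive oil array) and 165.0 (maslinic acid array), a bound of at least 4.12-fold and far from the log2 ratios of -0.08 and 0.01 of the brighter Hadh probe sets. It stood out as a signal outside the comparison that exceeded its level under the control diet, and its cause was not tested.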

How the results depend on the processing

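No array could be left out. No paired analysis was possible because the diets have 1 array apiece. Group medians counted as unmoved within the probe set SD of 0.23 divided by the square root of the gene number, and single genes within that SD. Of 461 member values under 12 alternatives, 453 were unmoved, 8 moved and 0 called values reversed. Only Eci3, Acaa1a and Fgf21, past 1.5-fold in the main setting, could count as reversed. Deposited scaling could change little, since both arrays had a trimmed mean of 200.1. The lower floor and dropping the minimum left the values of the measured members unchanged. The sign turned at least once in 10 of 39 members, among them Cpt1a (up to 0.05), Hadhb (down to -0.02) and Hsd17b4 (down to -0.13). The mitochondrial median stayed between -0.02 and 0.02, the peroxisomal between -0.04 and 0.01, their difference between -0.04 and 0.01, and the thioesterase median between -0.09 and 0.07, with no settled sign. The median of Ppara and its other targets stayed below 0, between -0.13 and -0.04. The median over all members was 0.019, against -0.03, with the mean of all measured probe sets. With that mean 2 members were still past 1.5-fold higher, but they were Eci3 and Hadh (0.66), while Acaa1a lay at 0.36. With a floor of 200 there were 0 past 1.5-fold lower and 0 past 2-fold. With a minimum of 400, also on the rescaled scale, there were 1 past 1.5-fold higher, 0 lower and 0 past 2-fold. Eci3 and Fgf21 were then not measured. The signal classes of the Results are on the deposited scale. With the minimum set on mean signal there were 0 past 1.5-fold lower. Leaving out the _x_at and _s_at probe sets, there was 1 past 1.5-fold higher, since Acaa1a was not measured. Low signal limits what can be said of Eci3 and Fgf21.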
